A study of Mus musculus with 2 samples.

Results

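Pou5f1 (also called Oct4), Sox2 and Nanog were followed as 3 of the 33963 gene rows of a single-cell RNA-seq count table that covers mouse cells returning from primed to naive pluripotency. The members were chosen by symbol, and each symbol matched exactly 1 row. The 5 populations were marked with oligonucleotide tags on antibodies against CD9 and CD63 and pooled in 1 cDNA library. The naive cells were mouse embryonic stem cells of the Rex1-GFP line, in which the Rex1 promoter drives a destabilized GFP. The primed cells were mEpiSCs (mouse epiblast stem cells) of the Oct4GIP line, which carries a reporter under Oct4 regulatory sequences and was expanded on fibronectin with FGF2 and activin A. The d8 and d16 cells were Oct4GIP cells treated for 8 or 16 days with AICAR, an activator of the kinase AMPK, together with the cytokine LIF (AICAR + LIF), on mouse embryonic fibroblast feeders. The d16+10p cells were reverted d16 cells grown for a further 10 passages in 2iL, a naive medium with MEK and GSK3 inhibitors and LIF. All cells were labelled as strain 129/Ola. Naive cells and the other 4 populations therefore differ in line and reporter as well as in state, and each population was 1 tagged sample, so that no difference has a replicate check and no test was made.

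The 3 genes encode the transcription factors at the centre of the pluripotency network. Pou5f1, a POU factor, and Sox2, an HMG-box factor, bind DNA side by side and activate their own genes as well as Nanog, which encodes a homeobox factor. Pou5f1 and Sox2 are active in naive and in primed cells, Nanog is known to be lower in primed than in naive cells, and Sox2 is in addition a lasting marker of neural progenitors.

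In the GENCODE annotation of GRCm38, Pou5f1 lay on chromosome 17 from 35506018 to 35510772, Sox2 on chromosome 3 from 34650405 to 34652461, and Nanog on chromosome 6 from 122707489 to 122714633, all on the plus strand. Sox2 consisted of 1 exon and lay within the span of the noncoding gene Sox2ot on the same strand, of which 0 exons overlapped it. The 250 bases before 1 RefSeq start site of each gene (GRCm38.p6, plus strand) are shown because POU and SOX proteins, 2 of the trio among them, are known to bind the octamer and SOX letters marked in them. Capitals mark every match, on either strand, to the octamer core ATGCAAA, the SOX core CATTGT, the GC box GGGCGG and the nuclear receptor motif AGGTCA. In Nanog the capitals from TTTGCAT to ACAATG run through the joint element, the reverse complement of both cores with 1 base between them.
Pou5f1 promoter, chr17:35505782-35506031: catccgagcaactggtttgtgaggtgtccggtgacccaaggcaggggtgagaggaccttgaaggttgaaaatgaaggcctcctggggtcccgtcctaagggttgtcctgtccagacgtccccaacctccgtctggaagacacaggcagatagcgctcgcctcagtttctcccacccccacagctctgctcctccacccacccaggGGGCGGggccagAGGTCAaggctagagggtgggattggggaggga
Sox2 promoter, chr3:34649745-34649994: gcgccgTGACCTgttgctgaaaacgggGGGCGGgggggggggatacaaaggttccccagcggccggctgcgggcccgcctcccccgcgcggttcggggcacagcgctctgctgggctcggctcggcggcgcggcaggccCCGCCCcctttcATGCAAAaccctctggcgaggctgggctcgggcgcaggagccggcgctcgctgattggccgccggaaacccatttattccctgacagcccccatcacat
Nanog promoter, chr6:122707239-122707488: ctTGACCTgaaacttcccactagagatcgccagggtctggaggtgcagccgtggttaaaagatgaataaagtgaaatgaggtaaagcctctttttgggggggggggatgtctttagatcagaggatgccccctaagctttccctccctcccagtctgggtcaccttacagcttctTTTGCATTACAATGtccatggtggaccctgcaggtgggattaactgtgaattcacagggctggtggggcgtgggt

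Of the 3 windows, that of Nanog held the SOX and octamer cores side by side, 62 to 75 bases before its start. Among 32851 RefSeq promoters of the same length, 2 held this joint element (0.00609%), and both were windows of Nanog, which has 2 listed starts. In the window that is not printed it lay 138 to 151 bases before the start. The Sox2 window held an octamer core 93 to 99 bases before its start, a match found in 4.13% of all promoters, and 2 GC boxes, of which 32.7% of promoters held at least 1. The RefSeq start used for this window lies before the GENCODE start of Sox2 given above, and distances were counted from the RefSeq start. The Pou5f1 window held neither core and ran to 35506031, past the GENCODE start of the gene at 35506018. It had a GC box 40 to 45 bases and an AGGTCA 28 to 33 bases before the start, and AGGTCA was found in 14.0% of all promoters. The SOX core alone was in 10.7%. The window at the other listed start of Pou5f1, which is not printed, held a SOX core 153 to 158 bases before it. A match is a description of the letters and does not show that a factor was bound in these cells.

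The table held 307121033 reads in 17720 cells. Of these, 801 cells were under the naive tag, 1826 under the primed, 9627 under d8, 4315 under d16 and 1151 under d16+10p. For every tag but d16 this is more than the number of cells the paper gives as collected. The excess, relative to that number, was largest for the primed tag, and d16 had fewer. Whether cells carried the tag of the culture they came from was not tested. Median reads per cell ran from 10185 in d16 to 21551 in d16+10p cells. The authors had assigned each cell to 1 tag, so the 0 cell barcodes found under more than 1 tag do not check the tagging. Levels are given in CPM, the reads of a gene summed over a group of cells per 1000000 reads of all genes, with exact 95% Poisson intervals. Intervals cover counting error only, and they treat each read as independent. Reads were not collapsed to molecules, so copies of the same molecule would make the intervals too narrow. Counting error below means that of reads under this assumption. CPM does not correct for gene length, and levels were compared between groups of cells, not between genes. The d16 cells were split at 1000 CPM of Dppa5a, a naive-state gene, into 1278 Dppa5a-high and 3037 Dppa5a-low cells. The primed tag also held cells with other marker panels, among them 179 with a fibroblast, 120 with a mesendoderm and 96 with a neuron panel. A further 86 had a neural progenitor, 74 an epithelial and 52 a naive panel, and 664 fell in no class. The 323 primed-tagged cells with at least 1000 CPM summed over Utf1, Tdgf1, L1td1 and Dnmt3b are called the primed core, and the other 1503 the primed rest.

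Pou5f1, Sox2 and Nanog each had a different order across these groups. Pou5f1 was highest in the primed core, whereas Sox2 and Nanog were highest in d16 Dppa5a-high cells. The primed and d16 tags were split by marker genes and the other tags were not. Utf1, Tdgf1 and L1td1, used for the core, are targets or partners of the trio. In d16+10p cells at 4000 CPM of Dppa5a or more, Pou5f1 was at 451 CPM (431 to 472), overlapping the primed core. In Dppa5a-high naive cells Nanog was at 496 CPM (484 to 508), overlapping d16 Dppa5a-high cells. Sox2 was below d16 Dppa5a-high cells in Dppa5a-high naive (346 CPM) and d16+10p cells (437 CPM). Pou5f1 was at 436 CPM (420 to 451) in the primed core, 345 CPM (337 to 354) in d16 Dppa5a-high cells, 341 CPM (334 to 348) in d16+10p and 317 CPM (308 to 325) in naive cells. It was at 123 CPM (118 to 128) in the primed rest, 56.8 CPM (55.7 to 57.9) at d8 and 39.9 CPM (37.8 to 42.0) in d16 Dppa5a-low cells. Only d16 Dppa5a-high and d16+10p cells had overlapping intervals among neighbours in this order. Sox2 was at 564 CPM (554 to 574) in d16 Dppa5a-high cells, 416 CPM (408 to 424) in d16+10p, 319 CPM (311 to 328) in naive cells and 266 CPM (254 to 278) in the primed core. It was at 265 CPM (260 to 271) in d16 Dppa5a-low cells, 204 CPM (198 to 211) in the primed rest and 118 CPM (116 to 119) at d8. For Sox2 the primed core and d16 Dppa5a-low cells were the neighbours whose intervals overlapped, so that Dppa5a-low cells did not differ in Sox2 from the primed core beyond counting error. Nanog was at 510 CPM (501 to 520) in d16 Dppa5a-high cells, 429 CPM (419 to 439) in naive cells, 363 CPM (356 to 370) in d16+10p and 151 CPM (143 to 161) in the primed core. It was at 74.8 CPM (71.1 to 78.6) in the primed rest, 47.3 CPM (46.3 to 48.3) at d8 and 46.0 CPM (43.8 to 48.3) in d16 Dppa5a-low cells, and the last pair overlapped.

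**Figure D1:**
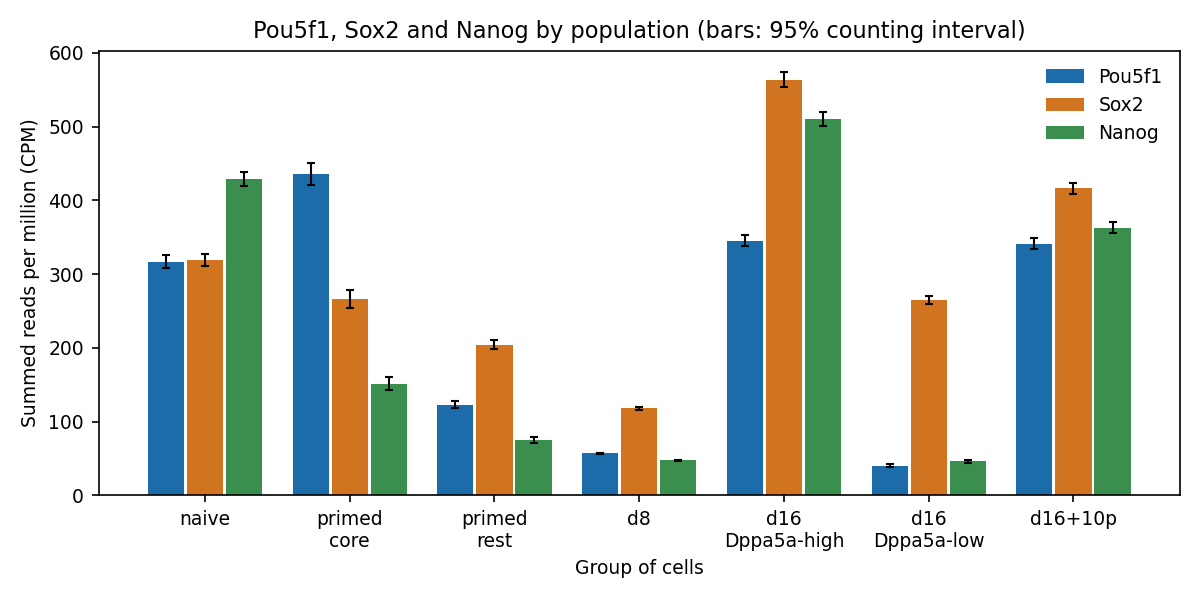
Summed reads per 1000000 reads (CPM, vertical axis) of Pou5f1, Sox2 and Nanog in 7 groups of cells, with bars for the exact 95% Poisson interval. Only the primed and d16 tags were split by marker genes. Pou5f1 peaks in the primed core at 436 CPM, Sox2 and Nanog peak in d16 Dppa5a-high cells at 564 and 510 CPM, and in d16 Dppa5a-low cells Sox2 is at 265 CPM with Pou5f1 and Nanog at 39.9 and 46.0 CPM.

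How often a gene is seen in a cell depends on its reads, so shares of cells with a read were taken after thinning each cell to 5000 reads, which left out 1767 shallower cells. The background was read from cells with a macrophage panel (C1qa, C1qb, C1qc, Csf1r, Tyrobp), which should lack all 3 genes. The 743 such cells had a median of 17359 reads. Of the 655 left after thinning, 12.2% (9.81 to 15%) had a Pou5f1 read, 22.3% (19.2 to 25.7%) a Sox2 read and 11% (8.70 to 13.6%) a Nanog read. Without thinning these shares were 32.0%, 47.1% and 31.6%. Pou5f1 was seen in 80.6% of primed core, 75.6% of d16 Dppa5a-high, 72.9% of d16+10p and 69.9% of naive cells, but in 28.8% of the primed rest and 19.7% of d8 cells. In d16 Dppa5a-low cells the share was 12.7% (11.4 to 14.0%), inside the interval of the macrophage panel cells. The Pou5f1 level of d16 Dppa5a-low cells, 39.9 CPM (37.8 to 42.0), exceeded 31.9 CPM (29.1 to 35.0) in macrophage panel cells of all tags. It lay inside the interval of the 34 d16 cells with that panel, at 36.3 CPM (24.5 to 51.8). The 111 d16 Dppa5a-low cells from 500 to 1000 CPM of Dppa5a had a Pou5f1 share of 27.5% (18.1 to 38.6%). Nanog was seen in 79.9% of d16 Dppa5a-high, 73.4% of naive, 72.1% of d16+10p and 51.0% of primed core cells, and in 17.3% of d8 and 16.5% of d16 Dppa5a-low cells. Sox2 was seen in 84.9% of d16 Dppa5a-high, 79.1% of d16+10p, 70.7% of naive and 67.7% of primed core cells. It was also seen in 57.8% (55.8 to 59.7%) of d16 Dppa5a-low and 35.0% (34.0 to 36.0%) of d8 cells, both above the macrophage panel cells of all tags together, 596 of which were d8 cells. In the 32 thinned d16 cells with the macrophage panel the Sox2 share was 59.4% (40.6 to 76.3%), so that the share in d16 Dppa5a-low cells was not above that of its own tag, where the levels were 265 against 173 CPM (146 to 204). Without thinning, Pou5f1 was seen in 81.3% of naive, 92.9% of primed core, 40.7% of d8, 90.7% of d16 Dppa5a-high and 86.8% of d16+10p cells.

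The comparison of primed core with naive cells addressed the starting point of the reversion. Nanog was 2.82-fold lower in the primed core, Sox2 1.2-fold lower and Pou5f1 1.37-fold higher. In log2 these ratios, computed with a pseudocount of 1 CPM, were -1.50 (-1.60 to -1.41), -0.26 (-0.34 to -0.19) and 0.46 (0.40 to 0.52). Nanog was the 1 member of 3 past 2-fold, where 7.43% of the 3808 genes tested were. With all primed-tagged cells in place of the core, Pou5f1 was lower than in naive cells (log2 ratio -0.64). That sum includes cells with other panels, such as fibroblast panel cells at 29.5 CPM, mesendoderm at 42.2 CPM and neural progenitor at 44.5 CPM. It also includes 664 cells in no class, at 100 CPM. The paper took the Oct4-negative cells of this population to be feeder cells. With the core set at 500 or 2000 CPM the ratio was 0.23 and 0.28. The 483 primed-tagged cells with the primed epiblast panel, which shares Utf1 and Dnmt3b with the core, had 388 CPM (376 to 400). The direction thus held for cells chosen by these markers, not for the whole tag. Because 231 of the 801 naive-tagged cells fell below 1000 CPM of Dppa5a, the comparison was repeated with the 570 naive-tagged cells above it, a choice made after the data were seen. Nanog was then 3.26-fold lower, Sox2 1.30-fold lower and Pou5f1 1.21-fold higher in the primed core. The targets shared by Pou5f1 and Sox2 went in both directions between these states. Of 6 tested, Lefty1 (709 against 136 CPM), Utf1 and Tdgf1 were past 2-fold upwards in the primed core, and Zfp42 (38.2 against 564 CPM), Fbxo15 (18.7 against 121 CPM) and Spp1 (119 against 719 CPM) downwards, with a median log2 ratio of -0.65 against 0.06 over all genes. Of 9 partners tested, 3 were past 2-fold upwards and 4 downwards, the latter being Esrrb (9.34 against 123 CPM), Tbx3, Dppa2 and Klf4. Utf1, Tdgf1 and the partner L1td1 were used to choose the primed core, so their ratios describe that choice.

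At d8 all 3 genes were lower than in the primed core, Pou5f1 by the widest margin. The difference was 7.55-fold for Pou5f1 (log2 ratio -2.92, -3.00 to -2.88), 3.16-fold for Nanog (-1.66, -1.77 to -1.59) and 2.25-fold for Sox2 (-1.17, -1.24 to -1.11). All 3 members passed 2-fold, where 23.2% of 4124 genes did. Against all primed-tagged cells the log2 ratios were -1.82, -0.98 and -0.90, so that Nanog and Sox2 were no longer past 2-fold. In the sum over d8 cells, fewer cells with a gene and less RNA per cell cannot be told apart. Of the known shared targets of Pou5f1 and Sox2, 4 of 10 reached the level for testing of 50 CPM in either group, with a median log2 ratio of -1.88 against -0.04 over all genes tested. Spp1, which encodes the matrix protein osteopontin, was at 1184 against 119 CPM, and Utf1, Tdgf1 and Lefty1 were lower. Utf1 and Tdgf1 had chosen the primed core, so their lower level at d8 follows in part from that choice. Lefty1, an inhibitor of Nodal, was not used in it and was at 321 CPM at d8 against 709 CPM in the primed core. Of 12 partners of the trio 6 were tested. Klf4, a Kruppel-like factor that supports the naive state, was higher (244 against 107 CPM). Sall4, a zinc finger partner of Pou5f1, was lower (38.3 against 86.8 CPM), as were Lin28a, an RNA-binding protein (16.6 against 123 CPM), and L1td1, which had chosen the core.

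The small group of d8 cells above 1000 CPM of Dppa5a differed from the rest of the culture in all 3 genes. In these 72 cells (0.748% of the tag), Pou5f1 was at 203 CPM (183 to 226), Sox2 at 298 CPM (272 to 325) and Nanog at 264 CPM (240 to 290). The other 9555 d8 cells were at 55.4, 116 and 45.2 CPM. Reads of all 3 genes were found in 33.9% (22.3 to 47.0%) of 62 thinned Dppa5a-high d8 cells. In the primed tag, 62 cells above the same level of Dppa5a had Pou5f1 at 269.5 CPM (237 to 305), Sox2 at 534 CPM (488 to 582) and Nanog at 401 CPM (361 to 443). The Sox2 and Nanog levels of these 62 cells were above those of the primed core, and 16 of them were in it. Without them the primed core was at 441, 261 and 141 CPM. Whether cells of these small groups carried the tag of the culture they came from was not tested.

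The d16 Dppa5a-high cells were next compared with the primed core, a subset of the line from which the culture was started. Sox2 was 2.12-fold higher (log2 ratio 1.08, 1.01 to 1.16) and Nanog 3.36-fold higher (1.75, 1.66 to 1.84), whereas Pou5f1 was 1.26-fold lower (-0.33, -0.40 to -0.27). Sox2 and Nanog, 2 of the 3 members, were past 2-fold, where 9.53% of the 3946 genes tested were. The comparison shares the primed core cells with that of d8. With all primed-tagged cells in place of the core, Pou5f1 was higher at d16 (log2 ratio 0.76). Of the shared targets, 6 were tested, with 3 past 2-fold upwards and 2 downwards and a median log2 ratio of 0.90, against -0.02 over all genes. Among the 6 were Utf1 (48.2 against 125 CPM) and Tdgf1 (764 against 829 CPM), which had chosen the core. Fbxo15, a long-used marker of undifferentiated stem cells, was at 252 against 18.7 CPM and Zfp42, which encodes Rex1, was at 488 against 38.2 CPM. Spp1 was higher as well (454 against 119 CPM), and Lefty1 was lower (78.4 against 709 CPM). Of 9 partners tested, Esrrb (117 against 9.34 CPM), Tbx3 (63.3 against 6.97 CPM), Dppa2 (89.9 against 12.4 CPM) and Klf4 (442 against 107 CPM) passed 2-fold upwards, and Lin28a and L1td1 downwards, of which L1td1 had chosen the core. Sall4 differed little, at 99.0 against 86.8 CPM. Among the POU paralogs Pou3f1 (Oct6), a factor of the primed epiblast, was the 1 gene tested and was at 11.1 against 81.1 CPM, opposite to Sox2 and Nanog.

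Within the d16 culture the trio separated the Dppa5a-high from the Dppa5a-low cells, with Sox2 much less so than the others. Nanog was 10.9-fold higher in Dppa5a-high cells (log2 ratio 3.44, 3.40 to 3.55), Pou5f1 8.47-fold (3.08, 3.03 to 3.20) and Sox2 2.12-fold (1.09, 1.05 to 1.13). All 3 passed 2-fold, as did 28.3% of 4373 genes. Nanog had a higher ratio than 99.3% of these genes, Pou5f1 than 98.8% and Sox2 than 88.6%. The shared targets Zfp42, Fbxo15 and Tdgf1 (a Nodal co-receptor) were higher in Dppa5a-high cells with log2 ratios from 3.12 to 4.04, whereas Spp1 (0.27) and Lefty1 (-0.94) stayed within 2-fold. The median of the 5 targets tested was 3.12, against 0.07 over all genes. Of 8 partners tested, Dppa2, Esrrb, Tbx3, L1td1 and Sall4 passed 2-fold upwards and 0 downwards. Among the known repressors of Pou5f1, Nr2f1 and Nr2f2, which are also factors of neural and mesenchymal lineages, were lower in Dppa5a-high cells (48.8 against 411 CPM and 19.2 against 103 CPM). Nr6a1, an orphan nuclear receptor that silences Pou5f1 on differentiation, was higher in the same cells as Pou5f1 (73.3 against 15.1 CPM). The 4 SOX paralogs tested, Sox4, Sox9, Sox11 and Sox21, were all lower in Dppa5a-high cells, at log2 ratios from -2.27 to -1.23, opposite to Sox2.

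The Dppa5a-low cells of d16 and d8, the larger share of each culture, were also compared. Both lie below 1000 CPM of Dppa5a, and a Dppa5a read was found in 48.2% of the former and 59.3% of the latter before thinning. Sox2 was 2.28-fold higher at d16 (265 against 116 CPM, log2 ratio 1.19, 1.16 to 1.23), Nanog did not differ beyond counting error (0.02, -0.05 to 0.10), and Pou5f1 was 1.38-fold lower (-0.46, -0.56 to -0.39). This comparison was chosen after the data were seen. Of the 3 genes Sox2 was higher in the d16 sum, and 6.29% of the 4007 genes compared had a higher ratio. Fabp7, a marker of radial glia, moved with it, at 487 CPM in d16 Dppa5a-low and 36.5 CPM in d8 Dppa5a-low cells, and its part in the Sox2 level was not tested.

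Binning d16 cells by Dppa5a showed where the 3 genes stepped up. In the 1574 cells without a Dppa5a read, Pou5f1 was at 28.0 CPM (25.3 to 30.9), Sox2 at 266 CPM (257 to 274) and Nanog at 38.5 CPM (35.3 to 41.9). In the 251 cells from 250 to 500 CPM they were at 51.0, 291 and 56.6 CPM. In the 111 cells from 500 to 1000 CPM, Pou5f1 was at 135 CPM and Nanog at 182 CPM, and in the 184 cells from 1000 to 2000 CPM they were at 237 and 367 CPM. In the 538 cells at 4000 CPM or more, Pou5f1 reached 397 CPM (383 to 410) and Nanog 601 CPM (585 to 618). Sox2 was at 322 CPM in the bin from 500 to 1000 CPM and 456 CPM in the next, and differed little between the bins above, at 576 CPM (561 to 592) from 2000 to 4000 CPM and 588 CPM (572 to 604) above. The Dppa5a level of 1000 CPM used for the split thus fell within the step and not between separate levels. The 3 genes were also higher in the highest Dppa5a bin than without a Dppa5a read in naive and d16+10p cells, but Sox2 at 4000 CPM or more was 378 CPM (349 to 409) and 470 CPM (449 to 491), both below that of d16 cells in the same bin.

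**Figure D2:**
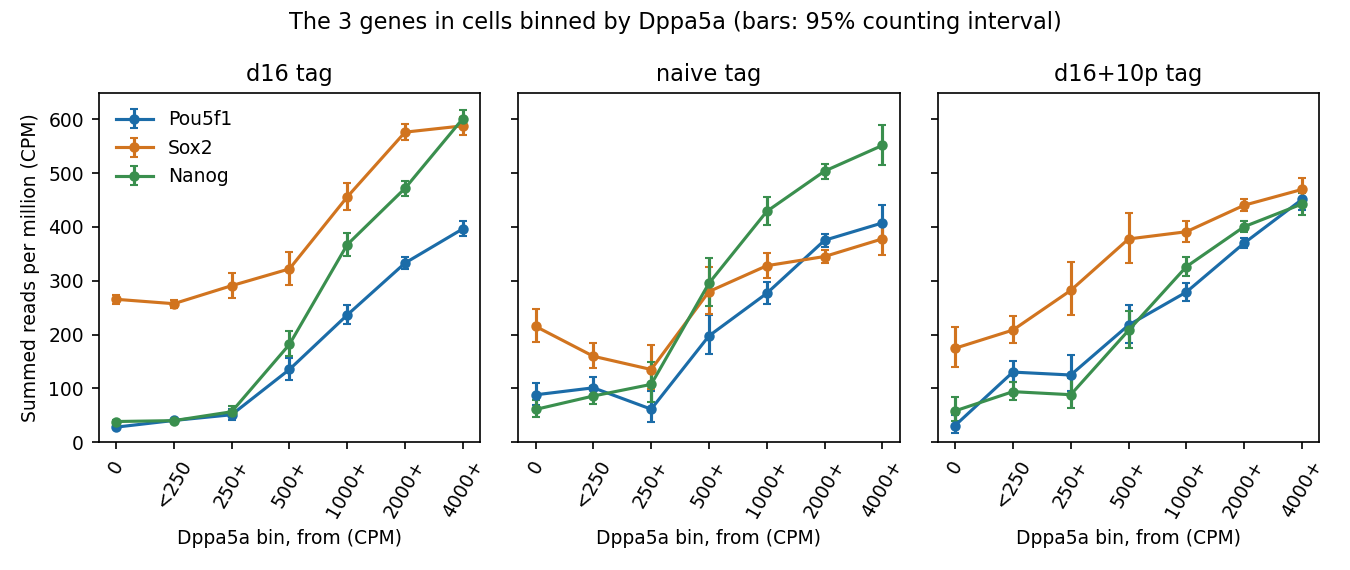
CPM of the 3 genes (vertical axis) in cells of the d16, naive and d16+10p tags, binned by the Dppa5a level of the cell (horizontal axis), with exact 95% Poisson intervals. At d16 Pou5f1 and Nanog climb from 28.0 and 38.5 CPM to 397 and 601 CPM, while Sox2 starts from 266 CPM and levels off at 588 CPM.

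Of the trio, Sox2 differed most between d16 Dppa5a-high and naive cells. It was 1.76-fold higher (log2 ratio 0.82, 0.77 to 0.87), Nanog 1.19-fold higher (0.25, 0.21 to 0.29) and Pou5f1 1.09-fold higher (0.12, 0.07 to 0.18). None of the 3 passed 2-fold, as 2.85% of 3818 genes did, and 3.38% of the genes had a higher ratio than Sox2. Against the 570 naive-tagged cells above the same Dppa5a level, Sox2 was still 1.63-fold higher (0.70, 0.66 to 0.75). Nanog did not differ beyond counting error there (0.04, -0.00 to 0.08), and Pou5f1 was 1.05-fold lower (-0.07, -0.12 to -0.01). Of the shared targets, Tdgf1 (764 against 341 CPM) and Fbxo15 (252 against 121 CPM) were past 2-fold in d16 Dppa5a-high cells, and 0 of 8 partners were. Nr6a1 was at 73.3 against 24.3 CPM.

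After 10 passages in 2iL, Sox2 and Nanog were lower than in d16 Dppa5a-high cells, and Pou5f1 was close to its level there. Against d16 Dppa5a-high cells, Nanog was 1.41-fold lower (log2 ratio -0.49, -0.53 to -0.45), Sox2 1.35-fold lower (-0.44, -0.48 to -0.40), and the interval of Pou5f1 held 0 (-0.02, -0.06 to 0.03). No member passed 2-fold, as 1.46% of 3765 genes did. With the 926 Dppa5a-high d16+10p cells alone, these ratios were -0.37 for Nanog, -0.37 for Sox2 and 0.09 (0.04 to 0.14) for Pou5f1, and TMM scaling gave 0.06 (0.02 to 0.11) for Pou5f1, so that it was then higher beyond counting error in d16+10p cells. Tdgf1 was the 1 of 6 shared targets past 2-fold (177 against 764 CPM), and Klf4 the 1 of 8 partners (209 against 442 CPM), both lower. Against naive cells, d16+10p cells had 1.30-fold more Sox2 (0.38, 0.34 to 0.43) and 1.08-fold more Pou5f1 (0.11, 0.06 to 0.16), and 1.18-fold less Nanog (-0.24, -0.29 to -0.20). Again no member was among the 1.24% of 3638 genes past 2-fold, nor was any target or partner tested. Among Dppa5a-high cells of both tags, Sox2 was at 437 CPM (428 to 445) in d16+10p and 346 CPM (336 to 356) in naive cells, Nanog at 394 CPM (386 to 403) and 496 CPM (484 to 508), and Pou5f1 at 368 CPM (360 to 375) and 361 CPM (352 to 371). Sox2 and Nanog thus differed in opposite directions beyond counting error, and Pou5f1 did not.

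Among cells of all tags the trio was seen together in 19.4% of d16, 48.1% of d16+10p and 45.7% of naive cells, and the d16 cells with all 3 lay mostly in the Dppa5a-high group. After thinning, reads of all 3 genes were found in 53.6% (50.7 to 56.4%) of 1238 d16 Dppa5a-high cells, 48.1% (45.0 to 51.1%) of 1082 d16+10p cells, 45.7% (42.1 to 49.4%) of 733 naive cells and 28.4% (23.4 to 33.8%) of 310 primed core cells. Among Dppa5a-high cells the share was 56.8% (52.6 to 60.9%) in naive and 55.5% (52.2 to 58.7%) in d16+10p. These intervals overlapped with that of d16 Dppa5a-high cells. The product of the 3 single shares was 51.3% in d16 Dppa5a-high, 41.6% in d16+10p, 36.2% in naive and 27.8% in primed core cells. In Dppa5a-high naive and d16+10p cells it was 54.2% and 53.7%, so shares of all 3 there were close to those products. At d8 all 3 were found in 205 of 8872 cells (2.31%), and in d16 Dppa5a-low cells in 56 of 2473 (2.26%). In macrophage panel cells they were found in 1.22% (0.529 to 2.39%). In the primed core Pou5f1 and Sox2 without Nanog were found in 28.7% of cells, about as often as all 3, where d16 Dppa5a-high cells had 10.7%. In d16 Dppa5a-low cells the most frequent was Sox2 alone, in 42.8%, against 5.33% in Dppa5a-high cells.

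**Figure D3:**
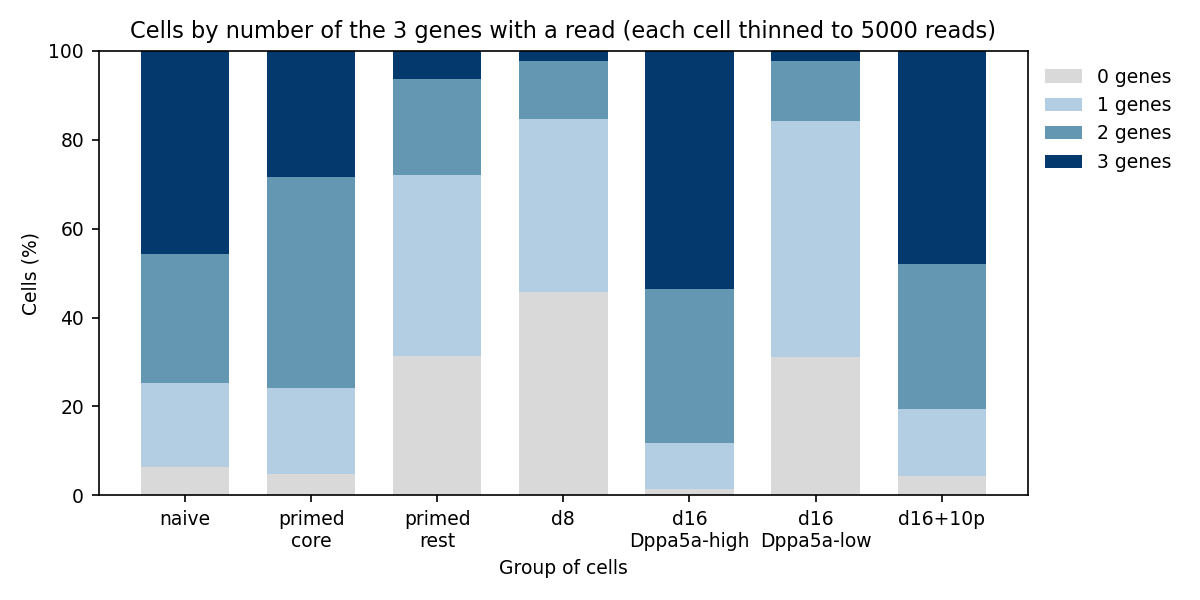
Percent of cells (vertical axis) with a read of 0, 1, 2 or all 3 of Pou5f1, Sox2 and Nanog in 7 groups, each cell thinned to 5000 reads. All 3 genes were found in 53.6% of d16 Dppa5a-high, 28.4% of primed core and 2.31% of d8 cells.

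Whether Pou5f1 and Nanog were seen in the same cells depended on how cells were grouped. In the primed core a Nanog read was found in 50.8% (44.4 to 57.2%) of cells with a Pou5f1 read and in 51.7% (38.4 to 64.8%) of cells without. In d16 Dppa5a-high cells these shares were 82.4% (79.8 to 84.8%) and 72.2% (66.8 to 77.2%). Over all d16 cells they were 67.8% (65.1 to 70.4%) and 22.3% (20.7 to 24.0%), a wider gap than within either Dppa5a group, and Dppa5a-low cells had 24.3% (19.6 to 29.4%) and 15.4% (13.9 to 17.0%). The spread among cells was described by the Fano factor, the variance of the thinned reads over their mean, which is 1 for Poisson counts. For Nanog it was 2.53 in d16 Dppa5a-high cells, 1.51 in naive and 1.39 in d16+10p Dppa5a-high cells. For Sox2 it was 1.96, 1.36 and 1.41, and for Pou5f1 1.34, 1.11 and 1.27. The median d16 Dppa5a-high cell had 423 CPM of Nanog, with 63.5 CPM at the 10th and 1048 CPM at the 90th percentile, where Dppa5a-high naive cells ran from 179 to 828 CPM. These percentiles were not thinned, and median depth was 14255 reads in the d16 and 23536 in the naive cells, which itself changes the spread of CPM among cells.

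Sox2 outside the pluripotent cells was examined with Fabp7, a fatty acid binding protein of radial glia. At d16, 824 cells (19.1%) had at least 500 CPM of Fabp7, of which 805 were Dppa5a-low. In these 805 cells Sox2 was at 385 CPM (373 to 397), against 221 CPM (215 to 227) in the other 2232 Dppa5a-low cells. Pou5f1 was at 30.9 against 43.2 CPM and Nanog at 38.2 against 48.9 CPM. The log2 ratio was 0.80 (0.74 to 0.86) for Sox2, -0.47 (-0.67 to -0.30) for Pou5f1 and -0.35 (-0.53 to -0.19) for Nanog. None of the 3 passed 2-fold, where 3.58% of 3852 genes did, and 3.19% of genes had a higher ratio than Sox2. After thinning a Sox2 read was found in 77.7% (74.4 to 80.8%) of Fabp7-high cells, at a median of 9161 reads before thinning, and in 49.9% (47.6 to 52.3%) of the others. Pou5f1 was found in 11.9% and 13.0%, both inside the interval of the macrophage panel cells. The pattern of Sox2 alone was found in 60.4% of Fabp7-high cells.

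Along Fabp7 the 3 genes parted. From the 1411 Dppa5a-low cells without a Fabp7 read to the 186 with 2000 CPM or more, Sox2 went from 195 CPM (187 to 203) to 452 CPM (423 to 484) and was higher in each bin than in the one before. Pou5f1 was at 39.8 CPM (36.4 to 43.4) in the lowest bin and 15.4 CPM (10.3 to 22.1) in the highest, and Nanog at 53.8 CPM (49.9 to 58.0) and 27.1 CPM (20.2 to 35.6). Of the neural check list, 4 of 10 genes were tested between Fabp7-high and other cells, with a median log2 ratio of 0.76 and 0 past 2-fold, against -0.03 over all genes. These were Nes, an intermediate filament gene of neural progenitors (221 against 145 CPM), Msi1 (52.0 against 26.0 CPM), Ncam1 (152 against 103 CPM) and Sox21 (86.9 against 45.8 CPM). Pax6 and Sox1 were at 15.4 and 13.4 CPM, under the level for testing, and the neuronal gene Dcx was at 6.31 against 21.8 CPM. Sox9, a SOX paralog of radial glia, was at 286 against 159 CPM, and the POU paralog Pou3f2 (Brn2), a neural partner of Sox2, at 69.6 against 26.9 CPM. Sox2ot was at 12.5 CPM (10.4 to 15) against 6.50 CPM (5.55 to 7.57).

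**Figure D4:**
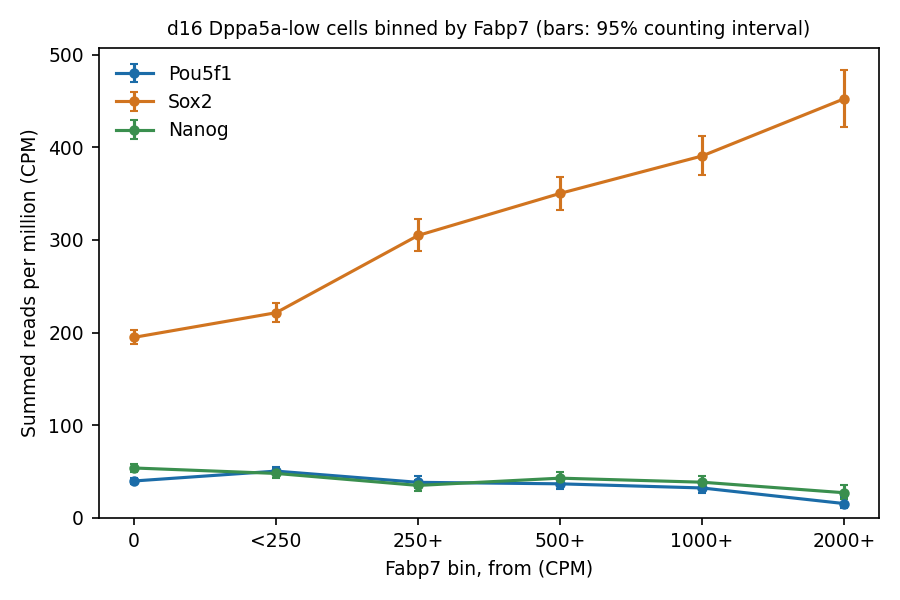
CPM of the 3 genes (vertical axis) in d16 Dppa5a-low cells binned by the Fabp7 level of the cell (horizontal axis), with exact 95% Poisson intervals. Sox2 climbs from 195 to 452 CPM, while Pou5f1 and Nanog are at 15.4 and 27.1 CPM in the highest bin.

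Fabp7-high cells occurred under every tag, and in the 4 tags other than d16 their Sox2 was above that of the other cells. Whether they carried the tag of the culture they came from was not tested, so the tags may not be separate observations. Sox2 was at 286 CPM (259 to 315) in 122 primed-tagged Fabp7-high cells, against 217 CPM (211 to 222) in the other primed-tagged cells. At d8 it was at 212 CPM (188 to 237) in 113 Fabp7-high cells against 117 CPM (115 to 119). In the naive and d16+10p tags, with 22 and 19 such cells, it was at 422 CPM (349 to 505) and 557 CPM (490 to 631), against 317 and 414 CPM in the others. Over all d16 cells it was at 387 CPM (375 to 399) against 374 CPM (368 to 380), where the other cells include most Dppa5a-high cells. Nanog went the other way in every tag, at 35.1 CPM (26.1 to 46.3) against 97.7 CPM (94.0 to 102) in the primed tag. It was at 31.7 CPM (23.1 to 42.5) against 47.4 CPM at d8 and 52.8 against 255 CPM at d16. In naive and d16+10p cells it was at 168 against 433 CPM and 289 CPM (241 to 343) against 364 CPM. Pou5f1 was also lower in Fabp7-high cells of every tag, for instance at 95.5 against 209 CPM in the primed tag.

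To see in which d8 cells the trio was found, cells were placed in classes by the highest of 10 marker panels that reached 20% of its own scale, the level of the 0.5% of cells with the most of it (0.1% for the 2-cell panel). No member was in a panel. A class is a range of a score and not a cell type, 6428 cells were in no class, and 1137 of these lay within a factor of 1.2 of a limit. Among d8 cells with the primed epiblast panel (Pim2, Utf1, Dnmt3b, Pou3f1, Fgf5), Pou5f1 was at 128 CPM (123 to 133), Sox2 at 142 CPM (137 to 147) and Nanog at 105 CPM (100 to 109). In d8 cells with the epithelial panel of simple keratins and Epcam, Pou5f1 was at 78.4 CPM (75.2 to 81.7), which was above the d8 cells with the macrophage (27.5 CPM, 24.7 to 30.5), smooth muscle (24.4 CPM, 22.2 to 26.7), mesendoderm (29.3 CPM, 26.2 to 32.7) and fibroblast (20.9 CPM, 16.7 to 25.9) panels. Against macrophage panel cells its log2 ratio was 1.48 (1.35 to 1.68). A Pou5f1 read was found in 25.7% (23.3 to 28.2%) of epithelial and 11.4% (8.97 to 14.2%) of macrophage panel cells after thinning. In the same epithelial panel cells Nanog was at 34.9 CPM (32.7 to 37.1) and Sox2 at 85.6 CPM (82.2 to 89.1), against 29.3 CPM (26.4 to 32.4) and 54.7 CPM (50.8 to 58.9) in macrophage panel cells, so that the difference was larger for Pou5f1. The mean primed epiblast panel was at 124 CPM in epithelial and 39.0 CPM in macrophage panel cells, and the naive panel at 119 and 114 CPM. The part of these markers in the Pou5f1 level was not tested.

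Between d8 and d16, Sox2 was higher at d16 in most classes. Of 9 classes and the unassigned cells, Sox2 was higher at d16 beyond counting error in 8 and lower in 0. The log2 ratio was 1.59 (1.43 to 1.77) in mesendoderm panel cells, 1.06 (1.01 to 1.12) in unassigned, 0.84 (0.63 to 1.05) in smooth muscle and 0.43 (0.20 to 0.66) in fibroblast panel cells. It did not differ beyond counting error in neural progenitor (409 against 422 CPM) and epithelial panel cells (80.5 against 85.6 CPM). Pou5f1 was higher in 2 and lower in 1, and Nanog higher in 5 and lower in 0. In how many classes other genes were higher at d16 was not counted, so whether these counts are unusual cannot be told. In the 34 d16 cells with the macrophage panel Sox2 was at 173 CPM (146 to 204), against 54.7 CPM in the 667 such cells at d8, a log2 ratio of 1.64 (1.39 to 1.92). The neural progenitor panel in these cells moved with it, at a mean of 317 CPM at d16 and 56.1 CPM at d8. In mesendoderm panel cells that panel was at 258 CPM at d16. Macrophages should lack Sox2, and the part of the neural progenitor genes in the Sox2 of the d16 classes was not tested.

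**Figure D5:**
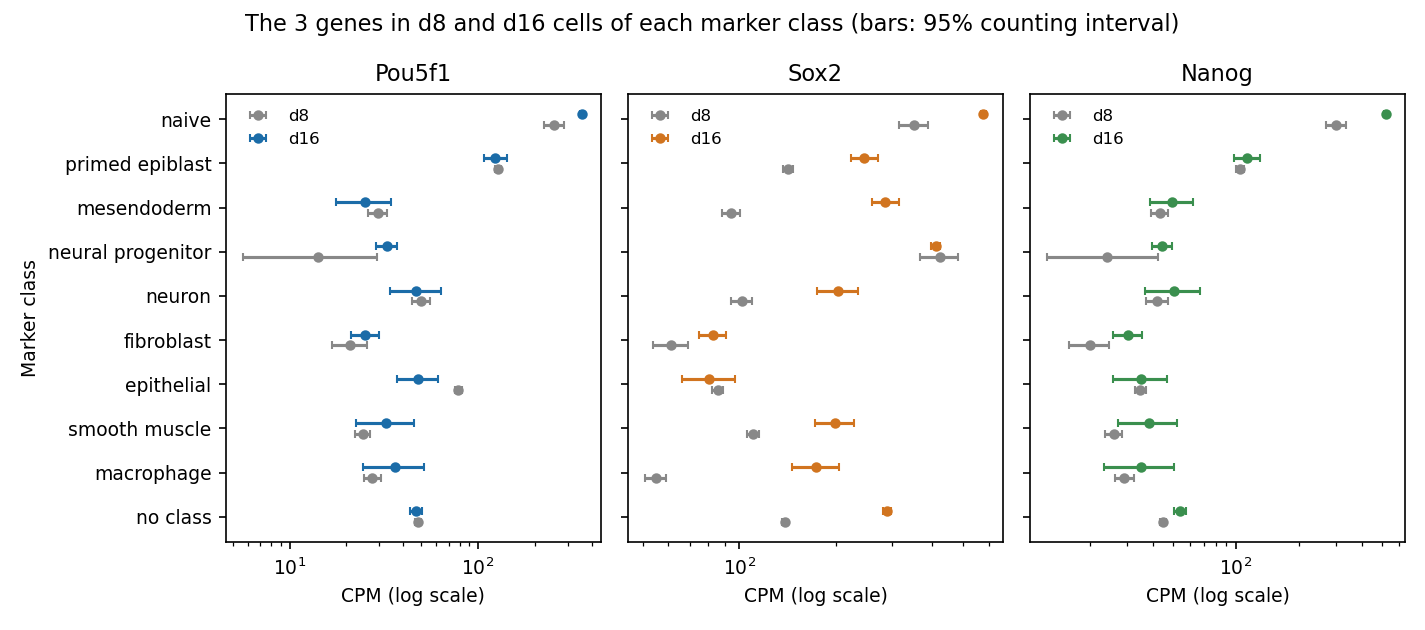
CPM on a log scale (horizontal axis) of Pou5f1, Sox2 and Nanog in d8 cells (grey) and d16 cells (color) of 9 marker classes and of unassigned cells, with exact 95% Poisson intervals. Sox2 is higher at d16 in 8 of the 10 rows, and Pou5f1 in epithelial panel cells is lower at d16, at 48.3 against 78.4 CPM.

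The genes with the most similar pattern were sought over 29 groups of tag and class with at least 50 cells, by Pearson r of log2(CPM + 1) among 6805 genes, as a description with no test. The groups share the library, and groups of 1 class share their markers. Pou5f1 was closest to Trap1a (r = 0.98), L1td1 (0.95), Mthfd1 (0.94), Gm19792 (0.94) and Olfr718-ps1 (0.94). Nanog was closest to Mtf2, an accessory subunit of PRC2 (0.95), Gm32885 (0.95), the telomere protein gene Terf1 (0.94), Alg13 (0.94) and Upp1 (0.93). Sox2 had lower values, with Prps1 (0.89), Vbp1 (0.89), Rpa2 (0.87), Idh3g (0.87) and Tsn (0.87). Within the trio r was 0.89 for Pou5f1 and Nanog, 0.76 for Sox2 and Nanog and 0.64 for Pou5f1 and Sox2. Reads of genes with near-identical copies may be split among them. Nanog-ps1, a Nanog pseudogene, had at most 1 read in any of the groups compared.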

How the data were processed

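Single-cell cDNA was made with the BD Rhapsody system and sequenced as 1 library, and the tags were sequenced separately. The authors trimmed reads with cutadapt (version 2.10) and aligned them to transcripts of mouse build mm10 with Bowtie2 (version 2.3.4.1). They assigned each cell to 1 tag, and cells of doubtful tag had been taken out. The submitters' notes also name Seurat (version 2.3.4). The deposited values are raw counts of reads per gene symbol and cell, not collapsed to molecules, and how reads that map to several genes were handled is not given in the sources used here. The tag library's own counts were not used here.

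Cells were grouped by the tag in their name (17720 cells, 3179 to 111822 reads each, median 14171.5), and no doublet caller was run. No test was made, as each population is 1 sample. Reads were summed per group and given as CPM with exact Poisson intervals, ratios with exact conditional binomial intervals and a pseudocount of 1 CPM, and shares with Clopper-Pearson intervals, all at 95% and for counting error only. Genes were tested against 2-fold where they had at least 50 CPM in either group and 100 reads in both together. Cells were thinned to 5000 reads with a fixed seed. The interval calculation was tried on simulated data. The simulated ratio lay inside 95.6% of 3378 intervals in the comparison of d16 Dppa5a-high cells with the primed core. In that of d16+10p with naive cells it lay inside 94.4% of 3404. Simulated data cannot show how often the intervals hold for the real reads. Thinned reads of the 3 genes varied more than Poisson counts among d16 Dppa5a-high cells, with Fano factors from 1.34 to 2.53. Alternatives covered the pseudocount, the mean over cells, TMM scaling, the depth of thinning, cells with the most reads, and the levels that define each group. The genes named are the 3 members, the genes of the related lists and marker panels, the 5 most similar genes of each member, and gene symbols that begin with a member's symbol. The members and lists were chosen with earlier results of these data known. Python (version 3.11.15), numpy (2.4.6), SciPy (1.17.1), matplotlib (3.10.9), R (4.3.3) and edgeR (4.0.16, for TMM only) were used.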

Additional observations from a re-analysis of the deposited data

Results flagged for a closer look

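Between d8 and d16, Pou5f1 moved in opposite directions in different marker classes. It was lower at d16 in cells with the epithelial panel, at a log2 ratio of -0.69 (-1.08 to -0.35) and 48.3 against 78.4 CPM in 68 and 1325 cells. In cells with the naive panel it was higher at d16, at 0.48 (0.31 to 0.67) and 355 against 254 CPM in 1215 and 42 cells. In cells with the neural progenitor panel it was also higher, at 1.16 (0.15 to 2.54) and 32.7 against 14.1 CPM in 650 and 41 cells, where macrophage panel cells of all tags were at 31.9 CPM. In the other 7 groups of cells the interval held 0. Each time is 1 sample, and the difference between classes was not tested.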

How the results depend on the processing

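Of 260 alternative values for 28 results, 168 stayed within the interval of the value in the report, 89 moved beyond it and 3 reversed, and 220 of 223 ratios with a direction kept it. The choice of primed cells had the widest effect. With all primed-tagged cells, Pou5f1 reversed to 0.76 for d16 Dppa5a-high against primed and to -0.64 for primed against naive cells, and it reversed to -0.065 for d16 Dppa5a-high against naive cells when naive cells were limited to Dppa5a-high ones. For d8 against the primed core, the log2 ratio with all primed-tagged cells was -1.82 for Pou5f1, -0.90 for Sox2 and -0.98 for Nanog, and with the core at 2000 CPM it was -2.74, -1.02 and -1.93. Pou5f1 there was -2.68 with the core at 500 CPM, -2.74 with a pseudocount of 10, -2.84 by the mean over cells and -2.88 with TMM scaling, and Nanog was -1.49 with a pseudocount of 10 and -1.56 without Dppa5a-high primed cells. For d16 Dppa5a-high against the primed core, Sox2 was 1.35 and Nanog 2.42 with all primed-tagged cells, and Pou5f1, Sox2 and Nanog were -0.16, 1.23 and 1.47 with the core at 2000 CPM. Pou5f1 was -0.10 with the core at 500 CPM, -0.26 with the split at 2000 CPM and -0.22 by the mean over cells, where Nanog was 1.58. For d16 Dppa5a-high against Dppa5a-low, Pou5f1 was 2.83 and Nanog 3.22 with a pseudocount of 10, and 2.70 and 2.89 with the split at 2000 CPM. Nanog was 3.57 with the split at 500 CPM, Pou5f1 3.22 without the 5% of cells with the most reads, and by the mean over cells Pou5f1 was 3.38 and Sox2 1.05. For d16+10p against naive cells, both limited to Dppa5a-high ones, Pou5f1 was 0.025, Sox2 0.34 and Nanog -0.33. Without that limit, Nanog was -0.15 by the mean over cells. The causes were not tested. The share of cells with all 3 genes depended on depth. Thinned to 3000 reads it was 20.7% in naive, 10.5% in primed core, 0.800% in d8, 30.5% in d16 Dppa5a-high and 25.5% in d16+10p cells. Without thinning it was 72.7%, 71.2%, 15.3%, 81.7% and 80.3%, and with 2 reads required it was 14.9%, 4.19%, 0.203%, 20.8% and 14.4%. In Dppa5a-high cells it was 56.8% for naive and 55.5% for d16+10p. The limits to Dppa5a-high cells, the primed core without them and the other settings of the marker classes were chosen after seeing the data. Sox2 in Fabp7-high cells and Pou5f1 in epithelial panel cells stayed within their intervals under every setting tried. No paired analysis was possible because each population is 1 sample and the replicate number is shared only by the cDNA and tag libraries, and for the same reason no replicate could be left out.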

Other observations

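A group of 34 cells with the 2-cell stage panel (Zscan4 and Tcstv genes, active in cleavage embryos and in a rare state of naive cultures) had the trio at unlike levels. Of these, 30 carried the d16 tag, where the panel's genes summed to a mean of 3258 CPM per cell. Nanog was at 382 CPM (321 to 451) in these 30 cells, Sox2 at 273 CPM (222 to 333) and Pou5f1 at 89.2 CPM (61.0 to 126). The 1215 d16 cells with the naive panel were at 522, 577 and 355 CPM. The naive panel was at 2225 CPM per cell in the 2-cell panel cells. The cells were grouped by panel, and their Pou5f1 reads number few, so that the interval spans a factor of more than 2.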
